A study of Mus musculus with 12 samples.

Results

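Of the 43278 gene symbols in the deposited expression table, 10 form the subject here, and all 10 were found by symbol: Nos2, Gch1, Slc7a2, Slc7a1, Ass1, Asl, Arg1, Arg2, Odc1 and Srm. They encode the enzymes and carriers through which macrophages take up arginine and turn it into nitric oxide, urea or polyamines. They were listed by name, as were the further lists below, but with earlier results of these data known. Shares and medians over these lists therefore describe them and are not independent support. The data came from thioglycolate-elicited peritoneal macrophages (PMφs), macrophages that an irritant recruits to the abdominal cavity of the mouse and that are then washed out. Poly(A) RNA was sequenced from 12 cultures of wild-type PMφs in 4 groups of 3. Control PMφs were given neither agent. The oxLDL group was cultured with 100 µg/ml human medium oxidized low-density lipoprotein (oxLDL), a modified lipoprotein that fills macrophages with lipid, for 24 h. The LPS group was given 10 ng/ml ultrapure lipopolysaccharide (LPS), the bacterial cell wall component sensed by TLR4, and the oxLDL+LPS group was given oxLDL first and then LPS. How long these cultures were kept with LPS is not given. The cells came from litters of male and female C57BL/6J mice, young adults, and were pooled and divided among the groups, so that a culture stands for a pool and not for a single animal.

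Nitric oxide synthase 2 oxidizes arginine to nitric oxide and citrulline and needs tetrahydrobiopterin as a cofactor, and the citrulline can be rebuilt into arginine. Arginases compete for the same arginine and split it into urea and ornithine, the substrate from which polyamines are made. In the mouse, high Nos2 is the textbook sign of a macrophage activated by bacterial products, and high Arg1 that of a macrophage exposed to IL-4 or IL-13.

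Values are normalized counts, that is, exonic reads per gene divided by 1 factor per library by the authors and rounded. They summed to 17152972 to 17709731 in the control and oxLDL libraries and to 22071853 to 26384551 in the LPS and oxLDL+LPS libraries. The factors, read from the gaps between low values, correspond to 16.7 M to 26.2 M reads per library. Of 8 macrophage markers 7 were in the table, and together they held 1.04% to 1.49% of each library, whereas the T cell markers Cd3e, Cd3d and Cd3g, the eosinophil markers Epx and Prg2 and the neutrophil marker Ly6g stayed under 10 in every library. Other markers in these lists moved with LPS. The 4 eosinophil markers summed to 319 to 385 in control and 104 to 125 in LPS libraries, and Siglecf was called lower with LPS with and without oxLDL. The neutrophil marker S100a8 and the endothelial markers Cdh5 and Kdr were called higher in both. The part of such cells in the LPS results was not tested. The summed level of 9 mesothelial and fibroblast markers was lowest in the library numbered 3 of every group, between 5379 and 6236, and reached 31836 in LPS replicate 1. The sum of 6 neutrophil markers was highest in number 3 of every group, between 750 and 1711, against 201 to 690 in the other libraries.

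Libraries with the same number deviated together from their group means, with correlations of 0.330 to 0.733 over 11186 genes. The correlations were 0.664 to 0.733 within an LPS state and 0.330 to 0.665 across the states. Deviations in a group of 3 sum to 0, so the correlation of 1 number also reflects the others and does not by itself show a pair. Sex-linked genes differed between the numbers. The Y-linked gene Ddx3y stood at 1156 and 1132 and the X-linked Xist at 1 and 2 in number 1 of the control and oxLDL groups. In number 1 of the LPS and oxLDL+LPS groups Ddx3y stood at 459 and 439 and Xist at 6331 and 3812. Number 2 was female in every group by these genes, with Ddx3y at 0 to 2 and Xist at 5933 to 7751. Number 3 held both sexes in every group, with Ddx3y at 707 to 775 and Xist at 3538 to 4217. Sex therefore cannot be told apart from other differences between the numbers. Xist was lower with oxLDL+LPS than with LPS in every number, most in number 1, and limma called it lower with the replicate block. By Ddx3y the libraries numbered 1 matched within an LPS state but not across the states. For the genes that form the subject here, calls with LPS are therefore counted with and without number 1, where still tested. The changes of Arg1 with LPS are also given both ways. Most other changes of single genes with LPS are given with number 1 included only. The same holds for all LPS results of the further gene lists and the cell markers. Fewer cells of a type and less RNA per cell cannot be told apart in such libraries, for any value given here.

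**Figure D1:**
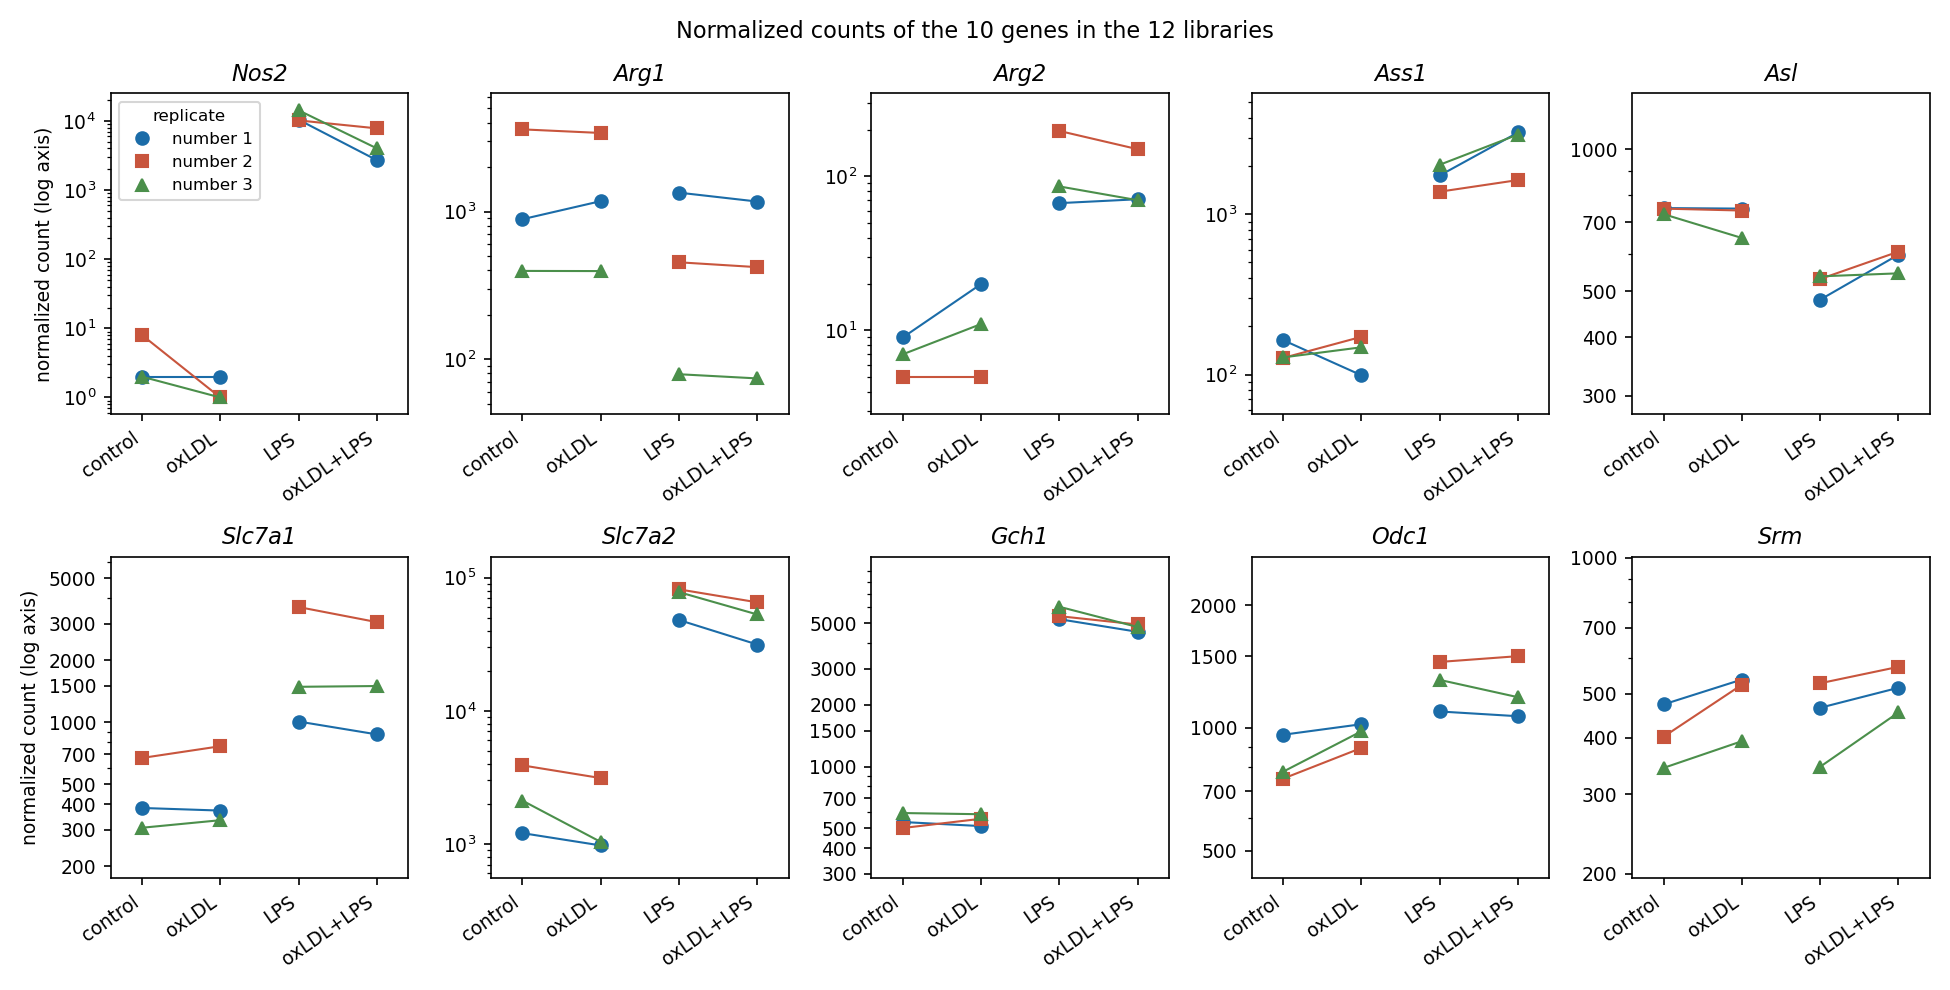
Normalized count (log axis, a separate range for each gene) of the 10 genes in the control, oxLDL, LPS and oxLDL+LPS libraries, with a symbol for each replicate number and lines that join the same number within an LPS state. Nos2 goes from 1 to 8 without LPS to between 2703 and 14245 with LPS, Arg1 differs more between numbers than between groups, and Srm stays between 343 and 574 throughout.

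LPS raised 7 of the 10 genes and lowered Asl, in PMφs without oxLDL and again in PMφs with oxLDL. Groups were compared with limma on log2(value + 1), called at a Benjamini-Hochberg adjusted p under 0.1 over all genes tested. In LPS against control, 61.7% of 13023 tested genes were called, 31.4% higher and 30.3% lower, so a call by itself says little about these genes. A signed median over all genes, given next, does not show how large changes were among them, and sizes were not otherwise compared. The median log2 fold change of the 10 genes was 2.69, against −0.00 for all genes. Between oxLDL+LPS and oxLDL, 54.5% of 12900 genes were called, 28.2% higher and 26.3% lower, and the medians were 2.40 and −0.02. The values of the 2 groups did not overlap for 8 of the 10 genes in either comparison, against 63.2% and 57.6% of all genes. With the replicate block the shares of called genes were 68.7% (34.6% higher, 34.1% lower) and 63.4% (32% higher, 31.4% lower), and Arg1 was called lower as well in both. Leaving out number 1, LPS against control called 5 higher and 1 lower of the 8 genes still tested, and oxLDL+LPS against oxLDL called 6 higher and 0 lower of 9, where Asl no longer passed. The shares of all genes called without number 1 are not given here, so these counts by themselves say little about the genes. Nos2 was then not tested in either comparison, nor Arg2 in the first, because the filter asks for 3 libraries at 10 or more. With all libraries, Nos2 and Arg2 passed that filter only with the help of their LPS libraries. The counts and medians above thus include genes let in by being high with LPS. Where at least 10 was required in every library, 8 genes were tested in each comparison, with 5 called higher and Asl lower. Of all genes, that filter gave 7191 calls among 11410 in LPS against control (3665 higher, 3526 lower). In oxLDL+LPS against oxLDL it gave 6409 among 11416 (3327 higher, 3082 lower). These results rest on the authors' scaling: when every library was set to the same total, the median of all genes moved to −0.48 in LPS against control and −0.40 in oxLDL+LPS against oxLDL, and the calls became 2210 higher and 7200 lower, and 2055 higher and 6616 lower. Quantile normalization moved those medians to −0.14 and −0.13 and gave 3243 higher and 4816 lower, and 2848 higher and 4283 lower.

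**Figure D2:**
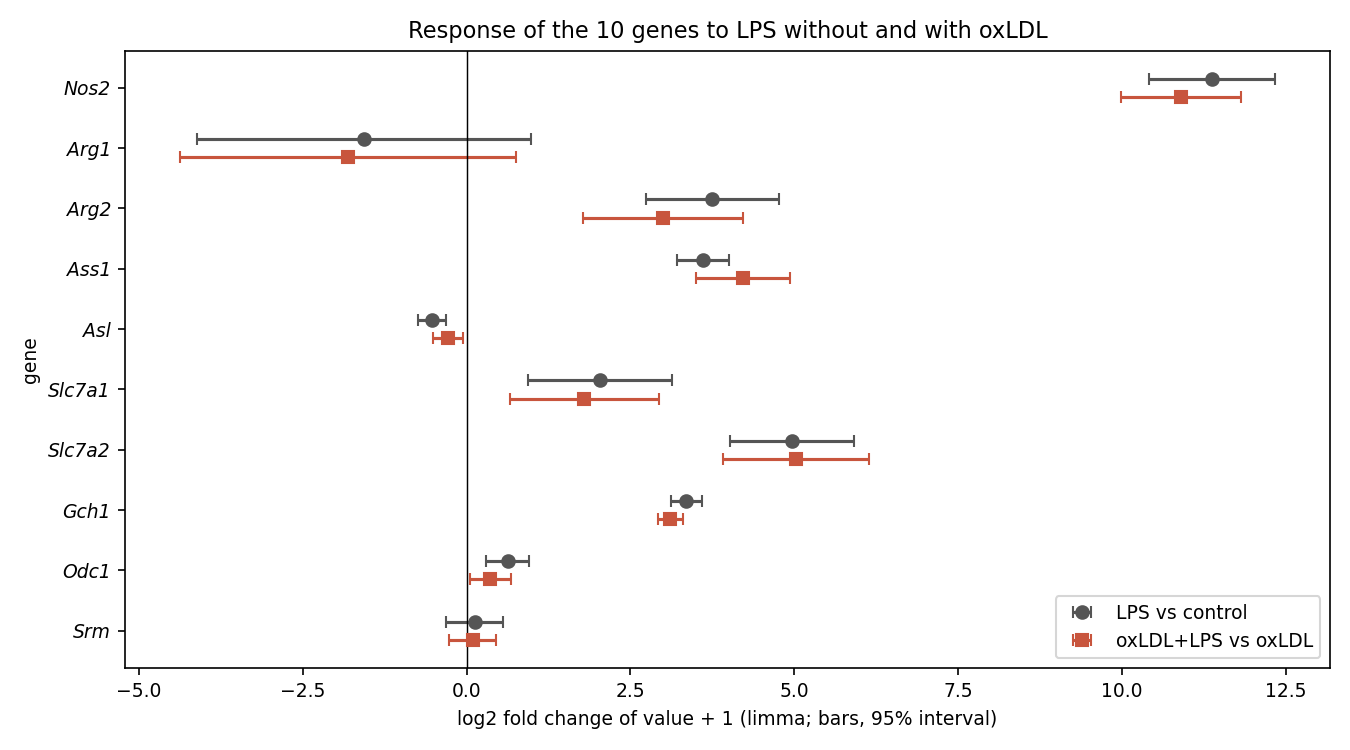
Log2 fold change of value + 1 (points, limma) with its 95% interval (bars) for each of the 10 genes in LPS against control (circles) and oxLDL+LPS against oxLDL (squares), with 3 libraries in each group. Nos2 lies at 11.37 and 10.90, Slc7a2 at 4.97 and 5.02, and only the bars of Arg1 and Srm cross 0 in either comparison.

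RefSeq promoters (GRCm38.p6) were at hand for 4 of the 10 genes, Ass1, Slc7a1, Gch1 and Odc1, all of which rose with LPS, and 120 bases that end just before the outermost annotated start of each are shown so that the members that moved together can be compared. Capitals mark letters that match any of 7 short motifs, searched on both strands of the 250 bases before the RefSeq start. The motifs were the NF-κB motif (GGGA, any 4 bases, CC), the interferon-stimulated response element (GAAA, any 2 bases, GAAA), TTCNNNGAA (STAT site), CACGTG (E-box), TGACNNNGC (antioxidant response element), TATAAA and CCAAT.
Ass1, plus strand, chr2:31470087-31470206: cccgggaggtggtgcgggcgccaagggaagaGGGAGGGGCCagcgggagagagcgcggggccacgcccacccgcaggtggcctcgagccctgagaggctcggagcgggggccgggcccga
Slc7a1, minus strand, chr5:148399905-148400024: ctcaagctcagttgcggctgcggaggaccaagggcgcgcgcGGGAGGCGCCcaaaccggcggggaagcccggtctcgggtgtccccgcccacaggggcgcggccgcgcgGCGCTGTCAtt
Gch1, minus strand, chr14:47189414-47189533: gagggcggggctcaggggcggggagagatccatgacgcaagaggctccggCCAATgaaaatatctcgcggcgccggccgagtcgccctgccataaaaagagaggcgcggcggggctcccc
Odc1, plus strand, chr12:17544674-17544793: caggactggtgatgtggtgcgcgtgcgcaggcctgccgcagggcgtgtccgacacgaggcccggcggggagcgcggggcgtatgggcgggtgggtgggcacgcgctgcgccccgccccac
The Ass1 and Slc7a1 stretches each hold the NF-κB motif, which 17.7% of 32536 distinct promoters hold, and Slc7a1 also holds TGACNNNGC on the other strand, found in 10.2%. The Gch1 stretch holds CCAAT, found in 33.8%, and the Odc1 stretch holds none of the 7. Within the 250 bases but outside the stretch shown, Ass1 has CACGTG, found in 6.04% of promoters, and Gch1 has TATAAA on the other strand, found in 12.3%. None of the 4 has the interferon-stimulated response element, held by 2.98%. A second annotated Slc7a1 start, not shown, has TATAAA and TTCNNNGAA, the latter found in 7.04%. A match is a match of letters and was not tested for binding.

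Nos2 (chr11:78920787-78960254, plus strand), the inducible nitric oxide synthase, was all but silent without LPS. Its normalized count was 2, 8 and 2 in the control libraries numbered 1, 2 and 3, and 2, 1 and 1 in the oxLDL libraries. With LPS it was 10411, 10173 and 14245, and with oxLDL+LPS it was 2703, 7805 and 4004. Every library with LPS was thus far above every library without it, and all 3 oxLDL+LPS libraries were below all 3 LPS libraries. The log2 fold change was 11.37 (SE 0.41) in LPS against control (limma, adjusted p = 6.48e-07) and 10.90 (SE 0.39) in oxLDL+LPS against oxLDL (1.34e-06). With a pseudocount of 10 in place of 1 these values were 9.71 and 8.60, since the groups without LPS were near 0. As a ratio of summed counts, the LPS libraries held 2902 times as much as the control libraries, with a 95% exact interval of 1661 to 5618 that covers counting error only and takes a normalized count as 1 read. For oxLDL+LPS over oxLDL, where the sum without LPS was 4, the ratio was 3628 (1417 to 13317).

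With oxLDL, the LPS-treated PMφs held 26.0%, 76.7% and 28.1% of the Nos2 of the same-numbered LPS library. The log2 fold change was −1.39 (SE 0.37, 95% interval −2.25 to −0.52), which did not pass over all genes (limma, adjusted p = 0.698) and passed with the replicate number as a block (SE 0.25, adjusted p = 0.0137). The blocked fit called 13.2% of 12786 genes, 4.42% higher and 8.74% lower. The blocked call was lost without number 1 (adjusted p = 0.172) and without number 3 (0.375), with log2 fold changes of −1.11 and −1.16. Without oxLDL+LPS replicate 2 the fit with no block called Nos2 at −1.80 (limma, adjusted p = 0.0601).

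Gch1 (chr14:47153895-47189413, minus strand) encodes GTP cyclohydrolase 1, the rate-limiting enzyme of tetrahydrobiopterin synthesis. It stood at 536, 501 and 593 in control and at 512, 556 and 585 in oxLDL libraries. It reached 5246, 5427 and 6033 with LPS and 4551, 4942 and 4803 with oxLDL+LPS. The spread between replicates was small, with a coefficient of variation of 4.16% to 8.55% in the 4 groups, and the groups with and without LPS did not overlap. Gch1 rose with LPS by 3.36 (SE 0.10) on the log2 scale without oxLDL (limma, adjusted p = 3.17e-07) and by 3.11 (SE 0.08) with oxLDL (4.09e-07). All 3 oxLDL+LPS libraries were below all 3 LPS libraries, at 86.8%, 91.1% and 79.6% of the same number. That difference, −0.22 (95% interval −0.46 to 0.01), did not pass (limma, adjusted p = 0.709, or 0.118 with the replicate block). Without number 2 it passed the blocked fit (adjusted p = 0.0469).

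The arginine carrier Slc7a2 (CAT2, chr8:40862396-40922308, plus strand) was the most abundant of the 10 transcripts in PMφs with LPS. Slc7a2 stood at 1205, 3889 and 2115 in control libraries and at 974, 3122 and 1035 in oxLDL libraries. LPS libraries held 48038, 81626 and 77823, and oxLDL+LPS libraries held 31436, 65219 and 52871. Number 2 was the highest and number 1 the lowest in every group, and no library without LPS came near any library with it. The rise was 4.97 (SE 0.41) without oxLDL (limma, adjusted p = 3.63e-05) and 5.02 (SE 0.47) with oxLDL (1.39e-04). Slc7a2 shares 635 exonic bases with Gm26584 on the opposite strand, whose highest value was 48, and whether counting used the strand is not stated.

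Slc7a2 was lower with oxLDL in every replicate number, in either LPS state. A like sign in all 3 numbers was found for 36.8% of genes without LPS and 45.3% with LPS, and for 4 of the 8 and 7 of the 10 members. Without LPS the oxLDL libraries held 80.8%, 80.3% and 48.9% of the control level, a log2 fold change of −0.55 (SE 0.54) that did not pass (limma, adjusted p = 1) and passed with the replicate block (SE 0.11, adjusted p = 0.0252). With LPS they held 65.4%, 79.9% and 67.9%, a change of −0.50 (SE 0.33, adjusted p = 0.782) that passed with the block (SE 0.14, adjusted p = 0.0679). The blocked call without LPS held when any 1 number was left out, with changes of −0.31 to −0.67. The blocked call with LPS was lost without number 1 (adjusted p = 0.480) and without number 3 (0.375), and held without number 2.

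Slc7a1 (CAT1, chr5:148327410-148399904, minus strand), the arginine carrier found in most cell types, stood at 383, 670 and 307 in control and at 372, 764 and 334 in oxLDL libraries. It was 1007, 3624 and 1485 with LPS and 872, 3061 and 1498 with oxLDL+LPS. Number 2 was again the highest in every group, but the lowest LPS library exceeded the highest library without LPS. Slc7a1 rose by 2.03 (SE 0.47) without oxLDL (limma, adjusted p = 0.00774) and by 1.80 (SE 0.48) with oxLDL (0.0187), where the call was lost without number 3 (0.125). No effect of oxLDL passed, with −0.15 (95% interval −1.50 to 1.21) in oxLDL+LPS against LPS, or −0.32 to 0.03 with the block. Per kilobase of exons, Slc7a2 was 3.30 to 8.70 times as abundant as Slc7a1 in the 6 libraries without LPS and 26.9 to 66.1 times in the 6 with LPS.

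Ass1 (chr2:31470207-31520672, plus strand), argininosuccinate synthase, joins citrulline to aspartate on the way back to arginine. It held 164, 127 and 128 in control libraries and 99, 172 and 148 in oxLDL libraries. It held 1743, 1381 and 2033 in LPS libraries and 3230, 1632 and 3137 in oxLDL+LPS libraries. The groups with and without LPS did not overlap, and Ass1 was the only LPS-raised gene of the 10 that was higher with oxLDL+LPS than with LPS in every number. It rose by 3.60 (SE 0.17) without oxLDL (limma, adjusted p = 2.21e-06) and by 4.22 (SE 0.31) with oxLDL (3.92e-05). The oxLDL+LPS libraries held 185%, 118% and 154% of the Ass1 of the LPS libraries, a change of 0.59 (SE 0.28, limma adjusted p = 0.733). That change passed with the replicate block (SE 0.11, adjusted p = 0.0179), and this call was lost without number 1 (0.194) or number 3 (0.375). Without LPS the numbers disagreed, at 60.4%, 135% and 116% of control.

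Asl (chr5:130011258-130029247, minus strand), argininosuccinate lyase, completes the same step and moved the other way. Its normalized count was 751, 749 and 729 in control libraries, 749, 742 and 649 with oxLDL, 480, 531 and 538 with LPS, and 598, 607 and 546 with oxLDL+LPS. Its spread between replicates was small, with a coefficient of variation of 1.64% in control and at most 7.83% elsewhere, and both LPS groups lay below both groups without LPS. Asl fell by 0.53 (SE 0.09) with LPS in PMφs without oxLDL (limma, adjusted p = 0.00198) and by 0.29 (SE 0.10) with oxLDL (0.0454). The second call was lost without any 1 of the 3 numbers (adjusted p of 0.113 to 0.177) and without oxLDL replicate 1 or 2 or oxLDL+LPS replicate 3 (0.138 to 0.145). All 3 oxLDL+LPS libraries were above all 3 LPS libraries, by 0.18 (95% interval −0.07 to 0.42, limma adjusted p = 0.753, or 0.259 with the block). Per kilobase, Asl exceeded Ass1 in control PMφs, 154 against 57.9 on average, and with LPS the order was turned, 107 against 712.

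Arg1 (chr10:24915221-24927484, minus strand), the cytosolic arginase, differed mainly between pools. Control libraries held 887, 3605 and 396, and oxLDL libraries held 1176, 3408 and 395. LPS libraries held 1343, 453 and 79, and oxLDL+LPS libraries held 1169, 420 and 74. Number 3 was the lowest in every group, number 2 was the highest without LPS and number 1 the highest with LPS. Of the variance of Arg1 over the 12 libraries on the log2 scale, 75.3% lay between the numbers within an LPS state, 24.4% between the LPS states and 0.126% between oxLDL and no oxLDL within a state. Within a number, oxLDL libraries held 133%, 94.5% and 99.7% of the control level of Arg1, and oxLDL+LPS libraries held 87.0%, 92.7% and 93.7% of the LPS level. These differences were small beside the spread between the numbers. In oxLDL against control the blocked interval was −0.07 to 0.28, and it passed only without number 3, at 0.16 (limma, adjusted p = 0.00920).

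Under LPS, Arg1 in number 2 was at 12.6% of control and in number 3 at 19.9%, whereas number 1, which was not the same pool in the 2 states, stood at 151%. With oxLDL present these shares were 12.3%, 18.7% and 99.4%. The log2 fold changes of −1.57 (SE 1.10) and −1.81 (SE 1.09) did not pass (limma, adjusted p = 0.263 and 0.215), and the groups overlapped. With the replicate block they passed (SE 0.60 and 0.53, adjusted p = 0.0556 and 0.0264), and that block joins unlike pools under number 1. In LPS against control the blocked call was lost without number 2 (0.196) or number 3 (0.184), and in oxLDL+LPS against oxLDL without number 3 (0.144). The fit with no block called Arg1 without LPS replicate 1 (−2.51, 0.0864) and without oxLDL+LPS replicate 1 (−2.72, 0.0773). Without number 1 the changes were −2.65 and −2.71 (limma, adjusted p = 0.149 and 0.166 without the block). With the block the limma adjusted p were 1.17e-05 and 2.62e-06, from 2 numbers whose pairing across LPS states was assumed. The summed mesothelial and fibroblast markers were also lowest in number 3 and the neutrophil markers highest there, as given above, and their part in the spread of Arg1 was not tested.

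Arg2 (chr12:79130777-79156301, plus strand), the mitochondrial arginase, was low in all groups and rose with LPS. It held 9, 5 and 7 in control libraries, 20, 5 and 11 with oxLDL, 67, 197 and 86 with LPS and 71, 150 and 70 with oxLDL+LPS. Groups with and without LPS did not overlap, and number 2, lowest without LPS, was the highest with it. The rise was 3.75 (SE 0.43) without oxLDL (limma, adjusted p = 2.28e-04) and 3.00 (SE 0.52) with oxLDL (0.00263), or 2.77 and 2.26 with a pseudocount of 10. Arg2 shares 285 exonic bases with Vti1b and 116 with Gm48780 on the opposite strand, and Vti1b reached 1459, so that part of the Arg2 count is uncertain if counting ignored the strand. Per kilobase, Arg1 exceeded Arg2 by 23.0 to 462 times without LPS. With LPS it did so by 12.8 and 10.6 times in number 1 and 1.47 and 1.79 times in number 2, and it lay below Arg2, at 0.589 and 0.678 times, in number 3.

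The ratio of Nos2 to Arg1 per kilobase, often used to place macrophages between nitric oxide and arginase activity, was at most 0.00255 in the 6 libraries without LPS. With LPS it was 3.91, 11.3 and 91.1, and with oxLDL+LPS it was 1.17, 9.38 and 27.3. It was lower with oxLDL+LPS in each number, and the 2 groups overlapped.

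Odc1 (chr12:17544794-17551505, plus strand), ornithine decarboxylase, makes putrescine from ornithine and is the first step of polyamine synthesis. It stood at 962, 751 and 781 in control libraries, 1021, 893 and 981 with oxLDL, 1097, 1451 and 1311 with LPS and 1068, 1499 and 1189 with oxLDL+LPS. All LPS libraries were above all control libraries, though number 1 stood at only 114% of its control library. Odc1 rose by 0.63 (SE 0.14) with LPS (limma, adjusted p = 0.00650), which with equal totals was 0.15 and did not pass (0.370). Between oxLDL+LPS and oxLDL the change was 0.36 (SE 0.13, adjusted p = 0.0607). With equal totals this was −0.03 (0.861), with quantile normalization it was 0.13 (0.432), and the call was lost without number 2 (0.245), number 3 (0.182), oxLDL replicate 2 (0.176) or 3 (0.119) or oxLDL+LPS replicate 2 (0.112).

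Srm (chr4:148591503-148594993, plus strand), spermidine synthase, showed no change with LPS that passed. Its values were 474, 402 and 343 in control, 538, 524 and 393 with oxLDL, 466, 528 and 345 with LPS and 516, 574 and 455 with oxLDL+LPS. The change was 0.13 (95% interval −0.31 to 0.56) in LPS against control and 0.09 (−0.27 to 0.45) in oxLDL+LPS against oxLDL, and with equal totals these were −0.36 and −0.30, still not passing. Number 3 was the lowest in every group, and 65.2% of the variance lay between numbers within an LPS state.

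Srm was higher with oxLDL in all 3 numbers in either LPS state, at 114%, 130% and 115% of control and at 111%, 109% and 132% of LPS. In oxLDL against control it was 0.25 (SE 0.16, limma adjusted p = 1) and passed with the block (SE 0.07, 0.0796). Between oxLDL+LPS and LPS it was 0.22 (SE 0.18) and did not pass (0.813, or 0.176 with the block, and 0.0934 with the block and without number 2). Odc1 was also higher with oxLDL in all 3 numbers without LPS, at 106%, 119% and 126% of control, by 0.22 (SE 0.11, limma adjusted p = 1, or SE 0.06 and 0.0760 with the block). With LPS it was at 97.4%, 103% and 90.7%. The blocked calls of Odc1 and Srm were lost without number 1 (adjusted p = 0.103 and 0.213) and without number 2 (0.378 and 0.453).

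Over the 10 genes, oxLDL against control gave no call without the block. Over all 12751 genes tested, limma called 0, a share of 0%, while 381 had an unadjusted p under 0.05. With the replicate block it called 601 genes, 4.71%, of which 1.8% of the tested genes were higher and 2.92% lower, and 3 of the 8 tested members, with Odc1 and Srm higher and Slc7a2 lower. Nos2 and Arg2 were under the filter there. Their summed counts were 4 against 12 for Nos2, a ratio of 0.333 with an exact 95% interval of 0.0784 to 1.10, and 36 against 21 for Arg2, a ratio of 1.71 (0.974 to 3.09), both intervals for counting error only. None of the 10 genes had groups that did not overlap, against 7.7% of all genes.

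Between oxLDL+LPS and LPS, limma called 0 of 12786 genes without the block, while 890 had an unadjusted p under 0.05. With the block it called Nos2 and Slc7a2 lower and Ass1 higher, 3 of the 10 members, against 13.2% of all genes (4.42% higher, 8.74% lower). The groups did not overlap for Nos2, Gch1 and Asl, 3 of 10, against 12.6% of all genes. The interaction, which asks whether the response to LPS differed with oxLDL, gave 0 calls among 13482 genes without a block (418 with an unadjusted p under 0.05) and with the replicate block (967). With a block for each replicate number within an LPS state it gave 147 calls, 1.09% of genes (0.408% higher, 0.682% lower), and none of the 10 members. The smallest adjusted p among the members in that fit was 0.226 for Odc1, at −0.27 (SE 0.09), followed by 0.239 for Gch1, at −0.24 (SE 0.09), and Nos2 had −0.47 (SE 0.53, adjusted p = 0.737). Without number 2 of the LPS libraries that fit called Odc1 (−0.31, adjusted p = 0.0815) and Gch1 (−0.29, 0.0907). With all libraries a different response to LPS with oxLDL was not shown for any of the 10 genes. For Nos2 and Arg2 the interaction rests on values of 1 to 20 without LPS and so depends on the pseudocount. With a pseudocount of 10 the Nos2 responses were 9.71 without and 8.60 with oxLDL, and the interaction called 0 of the 10 genes. These fits therefore say little about the interaction of these genes. The 4 comparisons share libraries, so they are not separate evidence.

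**Figure D3:**
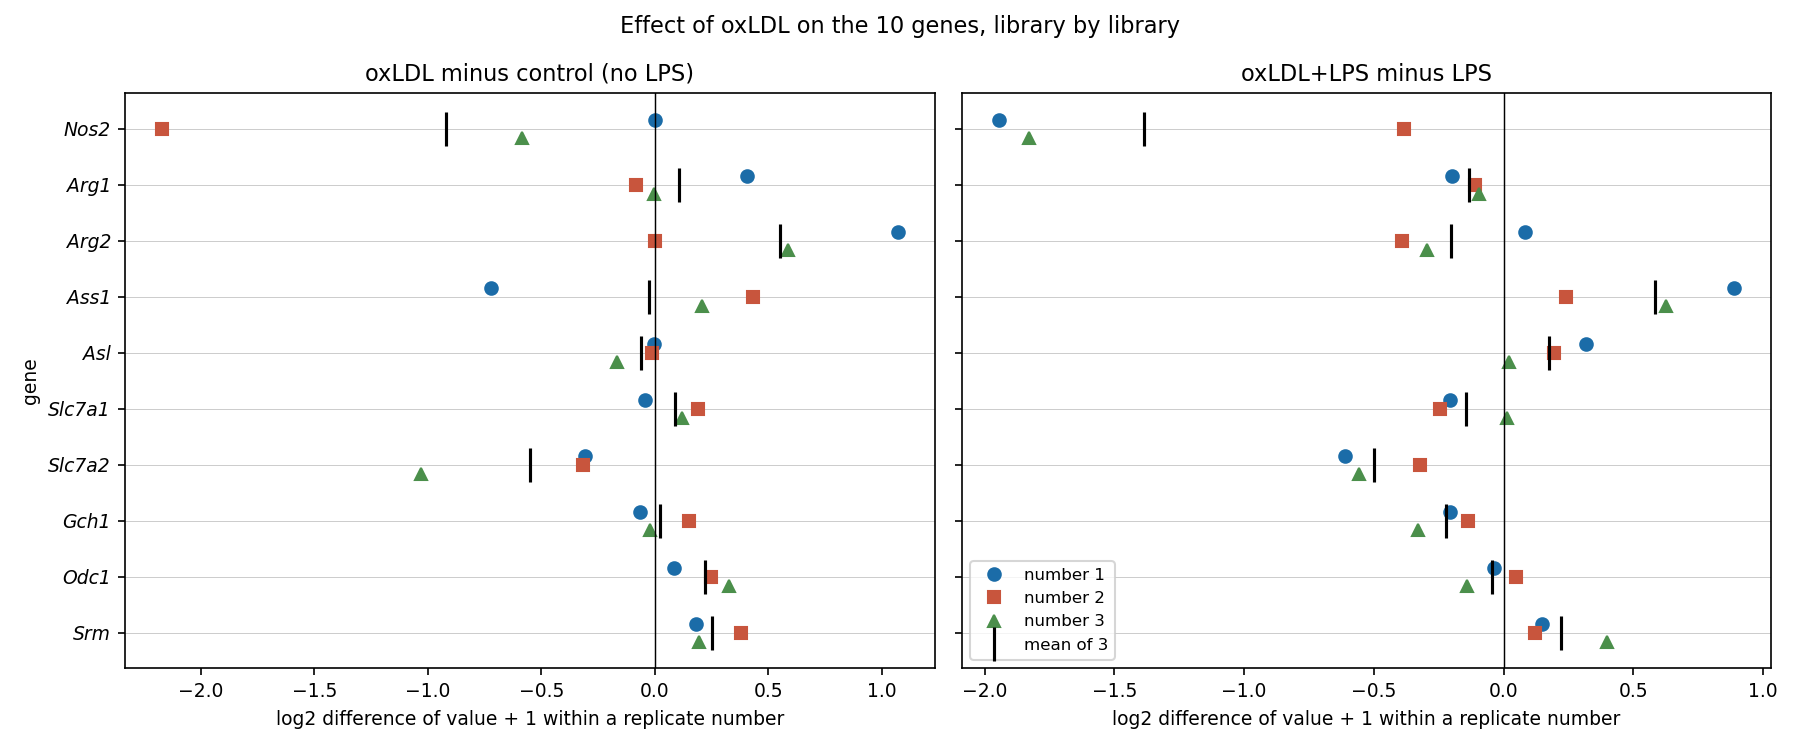
Log2 difference of value + 1 between the oxLDL and control library (left) and between the oxLDL+LPS and LPS library (right) of the same replicate number, for each of the 10 genes, with a symbol for each number and a bar at the mean of the 3. Slc7a2 is below 0 and Srm above 0 in all 3 numbers of either panel, Nos2 on the right lies at −1.95, −0.38 and −1.83, and Nos2 and Arg2 on the left rest on values of 1 to 20.

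Compared per kilobase of exons, the most abundant of the 10 transcripts in control PMφs was Arg1, with a mean of 731, but its range of 178 to 1618 overlapped that of Slc7a2 (mean 263), and the neighbours Slc7a2, Srm (254) and Odc1 (244) overlapped in turn. Below them Asl (154), Gch1 (86.9), Ass1 (57.9), Slc7a1 (39.3), Arg2 (4.90) and Nos2 (0.907) followed, where only Ass1 and Slc7a1 overlapped. With oxLDL the upper 5 were Arg1, Srm, Odc1, Slc7a2 and Asl, each overlapping the next. With LPS, Slc7a2 came first at 7571 and Nos2 next at 2631, without overlap, before Gch1 (891) and Ass1 (712). With oxLDL+LPS, Slc7a2 stayed first at 5456, and Ass1 (1105), Nos2 (1096) and Gch1 (762) followed, of which each overlapped the next.

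Around these 10 genes, 54 further genes of arginine, nitric oxide and polyamine metabolism were listed, of which 53 were in the table and 42 were tested in LPS against control. LPS raised 7 and lowered 17 of them, with a median of −0.25 against −0.00 over all genes. The 24 called of 42 are near the 61.7% of all genes called in that comparison, so the count by itself says little about this list. Among PMφs with oxLDL, 7 of 41 rose with LPS and 15 fell, with a median of −0.30, and these 22 of 41 are near the 54.5% of all genes. Of the 41 genes tested in both comparisons, 20 passed in both, and all 20 did so in the same direction.

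Among the genes that rose, Slc3a2, the heavy chain that brings amino acid carriers to the membrane, went from 4692 to 5173 in control to 9222 to 15454 with LPS, by 1.28 (SE 0.18, limma adjusted p = 5.95e-04). Its partner Slc7a7 rose by 0.58 (SE 0.10, adjusted p = 0.00158), and in oxLDL+LPS against oxLDL it had 0.31 (SE 0.20) and did not pass (0.237). Dhps, which starts the hypusine modification of eIF5A with spermidine, rose by 0.96 (SE 0.12) and Eif5a itself by 0.63 (SE 0.10). Sms, spermine synthase, rose by 0.41 (SE 0.10), and Smox, spermine oxidase, by 0.64 (SE 0.21). Mtap, which salvages the methylthioadenosine left by polyamine synthesis, rose by 0.42 (SE 0.10). With equal totals the median of all genes in LPS against control was −0.48, so rises near that size rest on the authors' scaling. The further genes were not fitted on that scale. Dohh, which completes hypusine, rose in oxLDL+LPS against oxLDL by 0.28 (SE 0.09, adjusted p = 0.0414) and had 0.21 (SE 0.11, 0.146) in LPS against control, and these values were within each other's error.

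Of the genes that fell, Paox, which oxidizes acetylated polyamines, had the largest change, from 223 to 252 in control to 40 to 73 with LPS, a log2 fold change of −2.20 (SE 0.23, limma adjusted p = 1.48e-04). The methionine salvage enzymes Adi1 and Mri1 fell by 2.07 (SE 0.15) and 1.45 (SE 0.15). Atp13a2, a lysosomal polyamine exporter, fell by 1.58 (SE 0.10), Slc18b1, a vesicular polyamine carrier, by 1.68 (SE 0.21), and Atp13a3 fell too. Amd1, which supplies the aminopropyl donor for spermidine, fell by 0.59 (SE 0.10), and Azin1, an activator of ornithine decarboxylase, by 0.33 (SE 0.11). Oat, which leads ornithine away toward proline, fell by 0.51 (SE 0.09), and Pycrl, a proline synthesis enzyme, by 1.25 (SE 0.17). Of tetrahydrobiopterin genes, Qdpr fell by 0.57 (SE 0.11) and Spr by 0.26 (SE 0.10). Eif5a2, Gamt, Oaz2 and Slc25a15 passed as lower too. The replicate block added Aldh18a1, Sat1 and Slc7a3 higher and Ddah2 and Slc7a6 lower in LPS against control. For oxLDL+LPS against oxLDL it added Aldh18a1 and Slc7a7 higher and Ddah2, Gatm, Pts and Sat2 lower. That block joins unlike pools under number 1, and these added calls were not checked without number 1.

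**Figure D4:**
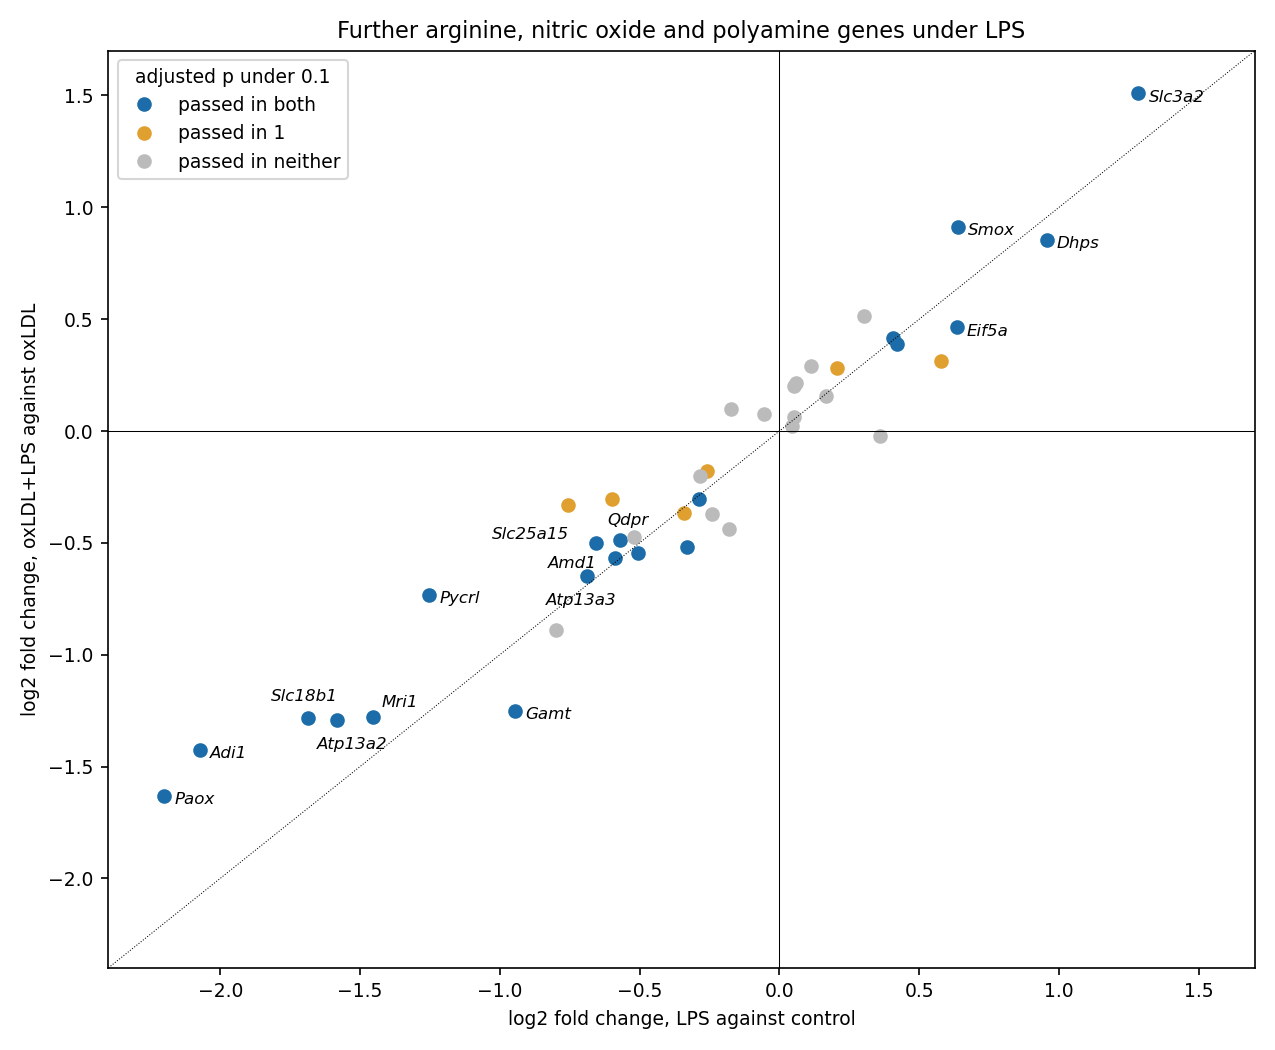
Log2 fold change in LPS against control (horizontal) and in oxLDL+LPS against oxLDL (vertical) for the 41 further arginine, nitric oxide and polyamine genes tested in both, with a dotted line of equal change and points coloured by the number of comparisons in which limma called them and names beside the larger changes called in both. Slc3a2, Smox, Dhps and Eif5a lie in the upper right and Paox, Adi1, Atp13a2 and Slc18b1 in the lower left, and 38 of the 41 have the same sign in both.

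In oxLDL against control, none of 41 tested further genes passed with or without the block. Between oxLDL+LPS and LPS none of 42 passed without the block, and with it Adi1 (0.58, SE 0.13, limma adjusted p = 0.0329), Pycrl (0.53, SE 0.15, 0.0643) and Slc3a2 (0.35, SE 0.10, 0.0735) were higher and Sat1 was lower (−0.55, SE 0.12, 0.0307). That blocked fit called 13.2% of all genes, 4.42% higher and 8.74% lower. Sat1, the spermidine and spermine acetyltransferase, stood at 5990, 7964 and 9415 with LPS and at 3731, 7176 and 5323 with oxLDL+LPS, lower in each number while the groups overlapped. Adi1 stood at 176, 261 and 229 with LPS and at 347, 347 and 296 with oxLDL+LPS, without overlap.

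Of 17 genes known to act on the transcription of Nos2, Arg1 or Odc1, LPS against control raised 12 and lowered Epas1 and Pparg, 14 of 17 where 61.7% of all genes were called, with a median of 1.40 against −0.00. Irf1 rose by 5.11 (SE 0.20), Nfkb1 by 3.22 (SE 0.16), Hif1a by 2.09 (SE 0.09) and Cebpb by 2.01 (SE 0.16), and Pparg fell by 3.59 (SE 0.16). Others that rose were Il4ra, Klf4, Max, Myc, Nfe2l2, Rela and Stat3, and the block added Ppard as lower. With oxLDL present, LPS raised 11, without Myc, and lowered Irf8 beside Epas1 and Pparg, to which the block added Stat6. In that comparison 54.5% of all genes were called, or 63.4% with the block. The blocked calls of Ppard and Stat6 join unlike pools under number 1 and were not checked without it.

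None of the 17 passed between oxLDL+LPS and LPS without the block, and with it 6 were lower, where 8.74% of all genes were, namely Epas1, Hif1a, Il4ra, Irf8, Nfkb1 and Stat3. Hif1a, the hypoxia-inducible factor subunit, stood at 9099, 7885 and 9081 with LPS and at 5868, 6207 and 6157 with oxLDL+LPS, a change of −0.51 (SE 0.09 with the block, limma adjusted p = 0.0126) with no overlap. Irf1 had −0.25 (SE 0.11, 0.211) in the same fit and did not pass. In oxLDL against control the block called Myc, a known activator of Odc1, higher by 0.43 (SE 0.12, limma adjusted p = 0.0867) and Epas1 lower by 0.30 (SE 0.08, 0.0726). That fit called 4.71% of all genes. In the interaction with a block within each LPS state, Cebpb and Hif1a were called lower, where 0.682% of all genes were.

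Of 10 alternative activation markers often read beside Arg1, LPS against control raised Ccl24, Il4ra, Pdcd1lg2 and Socs2 and lowered Clec10a, 5 of 10 against 61.7% of all genes called, with a median of 0.28. With oxLDL present Ccl24 and Il4ra rose and Mrc1 fell, and the block added Socs2 higher and Clec10a lower. There 54.5% of all genes were called, or 63.4% with the block. In oxLDL+LPS against LPS the block called Ccl24, Il4ra and Socs2 lower, where 8.74% of all genes were. Chil3 and Retnla passed in none of these.

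The genes with the most similar profile were named for 5 members by the root-mean-square difference between profiles scaled to mean 0 and SD 1 over the 12 libraries, among 13482 genes. For Nos2 they were Gbp9 (0.0767), Ms4a4c (0.0795) and Aim1 (0.0811), and Gbp9 held 40 to 90 without LPS, 3757 to 5008 with LPS and 2385 to 3483 with oxLDL+LPS. For Slc7a2 they were Zc3hav1 (0.0887), Lgals3bp (0.0894) and Phlpp1 (0.101). The likeness was weaker for the other 3 members, with Egln1 (0.287), Clspn (0.331) and Smad3 (0.338) for Arg1, E2f3 (0.265), Raet1d (0.270) and Hnrnpa2b1 (0.289) for Odc1, and Ube2e3 (0.331), Rcc1 (0.463) and Ddah1 (0.503) for Srm.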

How the data were processed

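Poly(A) RNA of 12 PMφ cultures was sequenced with a strand-marking kit. Per the labels and the study's methods, reads were trimmed by the authors (Trimmomatic 0.32) and mapped with STAR 2.5.1b to the mm10 (GRCm38) genome, and featureCounts assigned them to exons of GENCODE genes. Whether counting used the strand is not given in the sources used here. Deposited are whole numbers, used here as a signal that the authors made by dividing each library's counts by 1 factor and rounding, as the gaps between low values show. Reads per gene were not recovered, because rounding merges neighbouring counts where the factor exceeds 1. Tests for raw counts, laid out for that case, were therefore not run. Of the 43278 rows 18273 were at 0 in every library, and a spreadsheet had turned 25 symbols into dates.

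Groups were compared with limma (3.58.1 in R 4.3.3; lmFit and eBayes with a variance trend) on log2(value + 1), for genes that reached 10 in 3 or more of the compared libraries, with only the 6 libraries of a comparison in its fit and all 12 for the interaction. A gene was called where its p, adjusted by Benjamini-Hochberg, was under 0.1. The steps were tested on simulated data. Labels gave the groups and the replicate numbers 1 to 3. The methods describe pools divided among the groups, and same-numbered libraries deviated together (correlations of 0.709, 0.691 and 0.731 for oxLDL and control, 0.733, 0.664 and 0.691 for oxLDL+LPS and LPS, 0.422, 0.410 and 0.617 for LPS and control, and 0.330, 0.524 and 0.665 for oxLDL+LPS and oxLDL). The replicate block therefore took the numbers as pairs. Across LPS states number 1 was not a pair by the sex-linked genes. For numbers 2 and 3 the correlations do not settle pairing across the states. In LPS against control the value of number 1 (0.422) was no lower than that of number 2 (0.410). Without a block, p-values measure the spread between these cultures, and with a block only the spread left once the replicate number is taken out.

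The 10 genes and all lists were chosen with earlier results of these data known. Named genes were all 10, each listed gene called in a fit (a few are not reported here), and the 3 nearest profiles of 5 members. Positions and exon lengths came from GENCODE M21 (GRCm38). Alternatives were other pseudocounts, filters, scalings and variance estimates, all libraries in 1 fit, the replicate block, and leaving out libraries or, chosen after seeing the data, whole replicate numbers and a block within each LPS state. Exact intervals cover counting error only.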

Additional observations from a re-analysis of the deposited data

Results flagged for a closer look

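Asl is singled out because the difference made by oxLDL had opposite signs in the 2 LPS states in every replicate number. Without LPS its mean log2 difference over the 3 numbers was −0.062, lower in 3 of 3, although number 1 and number 2 stood at 99.7% and 99.1% of control. With LPS it was 0.18, higher in 3 of 3. A like sign in all 3 numbers was found for 36.8% of genes without LPS and 45.3% with LPS. The share of all genes with opposite signs in the 2 states was not counted, so the pattern is not set apart from them. The sign pattern itself was not tested, and the interaction for Asl was 0.24 (SE 0.12, limma adjusted p = 1, or SE 0.10 and 0.326 with a block within each LPS state).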

How the results depend on the processing

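The counts of called genes in LPS against control and in oxLDL+LPS against oxLDL stayed within 1.5 times under every alternative. With the replicate number as a block, oxLDL against control went from 0 to 601 called genes and oxLDL+LPS against LPS from 0 to 1682. With all 12 libraries in 1 fit, oxLDL+LPS against LPS had 29. The interaction had 147 with a block within each LPS state. Leaving out a library or a replicate number, with or without a block, gave 0 to 1285 genes in oxLDL against control (the highest blocked and without number 3), 0 to 2945 in oxLDL+LPS against LPS (blocked and without number 2) and 0 to 1548 in the interaction (without number 2 of the LPS state). Blocked fits on 2 numbers have little spread of their own to go by, so their p-values lean on the variance shared over genes. Beside the calls given in the results, the pairing changed no other call of the 10 genes.

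With equal totals, Odc1 was −0.027 in oxLDL+LPS against oxLDL and 0.046 in oxLDL+LPS against LPS, and Srm was −0.36 in LPS against control, −0.30 in oxLDL+LPS against oxLDL and 0.061 in the interaction. With quantile normalization Srm was −0.015 in oxLDL+LPS against oxLDL. These have the opposite sign to the values as deposited, by the construction of the scaling.

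Leaving out libraries turned the sign of log2 fold changes that had not passed. Their ranges for Srm were −0.0081 to 0.30 in LPS against control and −0.050 to 0.18 in oxLDL+LPS against oxLDL. In oxLDL against control they were −0.67 to 0.97 for Arg1, −0.26 to 0.32 for Ass1, −0.10 to 0.0050 for Asl, −0.28 to 0.41 for Slc7a1 and −0.043 to 0.086 for Gch1. In oxLDL+LPS against LPS they were −1.23 to 0.94 for Arg1, −0.56 to 0.25 for Arg2, −0.62 to 0.38 for Slc7a1 and −0.18 to 0.063 for Odc1. In the interaction they were −1.60 to 0.27 for Nos2, −1.34 to 0.83 for Arg1, −0.71 to 0.29 for Slc7a1, −0.37 to 0.60 for Slc7a2 and −0.21 to 0.10 for Srm. The cause was not tested.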
